A study of Mus musculus with 12 samples.

Results

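Oxidative phosphorylation is carried out in the inner mitochondrial membrane by 4 respiratory complexes, which pass electrons from NADH and succinate to oxygen, and by ATP synthase, here called complex V, which uses the resulting proton gradient to make ATP. A few of the subunits are encoded in mitochondrial DNA, and the others are nuclear genes whose proteins are imported and built into the complexes together. Kidney tubules, the proximal tubule above all, are rich in mitochondria, since the reabsorption of solutes consumes much ATP. The genes described here are those with the symbols of nuclear subunits. They were taken by symbol from the gene table, as those starting with Ndufa, Ndufb, Ndufc, Ndufs, Ndufv, Uqcr, Cox4i, Cox5, Cox6, Cox7, Cox8 or Atp5, together with Sdha, Sdhb, Sdhc, Sdhd and Cyc1. The 8 Ndufaf assembly factors were left out. This gave 89 of 21004 genes, with 39 in complex I (NADH dehydrogenase), 4 in complex II (succinate dehydrogenase), 9 in complex III (cytochrome bc1 complex), 20 in complex IV (cytochrome c oxidase) and 17 in complex V. Ndufa4 and its paralog Ndufa4l2 were counted in complex IV, where the Ndufa4 protein sits. Ndufa11b, which the annotation lists as a transcribed pseudogene, matched the rule by symbol and is counted with complex I, while the other 88 are listed as protein-coding.

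RNA was sequenced from kidneys of mice of the outbred ICR strain at 8 weeks of age. There were 12 libraries in 4 groups of 3, which were a control group, a group given busulfan (an alkylating drug that crosslinks DNA), a group given busulfan and L.J. at 10 mg/kg, and a group given L.J. alone at 10 mg/kg. The labels do not explain L.J., the design text speaks of FMT in its place, and no dose or time of busulfan and no sex is given. Whether each library came from its own animal is not stated, and the spread behind each p-value is that between libraries. The question named by the series is whether L.J. reverses what busulfan does to the kidney.

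Values were FPKM, fragments scaled to transcript length and to the mapped total of the library. They summed to between 481937 and 541844 per library, and no absolute depth can be read from them. Steps between low values placed the relative depths within a ratio of 1.193. Kidney markers were high in all libraries, with 486 FPKM or more of Umod (uromodulin, of the thick ascending limb) and 2225 FPKM or more of Slc34a1 (a phosphate transporter of the proximal tubule). In the busulfan group, busulfan 3 stood apart from busulfan 1 and 2 in several ways. Kap, an abundant proximal tubule transcript, took 2.13% and 1.03% of the FPKM sum in busulfan 1 and 2, against 9.32% in busulfan 3 and 6.61% to 9.73% elsewhere. The other listed proximal tubule markers did not all follow Kap in busulfan 1 and 2. Slc22a6 (333 and 259 FPKM, control 505 to 594) and Slc5a2 (167 and 124 FPKM, control 185 to 214) were lower. Slc5a12 was higher (319 and 243 FPKM, control 153 to 175). Lrp2 and Cubn lay inside the control range, and Slc34a1, Slc27a2 and Miox differed between the libraries. The summed level of 5 intercalated cell markers was 154 and 173 FPKM in busulfan 1 and 2, against 62.0 to 78.1 FPKM in the other 10 libraries. Markers of the distal convoluted tubule (4 genes) summed to 416, 323 and 269 FPKM in busulfan 1, 2 and 3 and to 207 to 257 FPKM in control, and principal cell markers (5 genes) to 256, 274 and 178 FPKM and to 159 to 168 FPKM. Both sums were thus above every control in all 3 busulfan libraries, but not every marker was in busulfan 3. There Pvalb, Wnk4, Avpr2, Scnn1b and Hsd11b2 were above every control. Slc12a3, Trpm6 and Aqp3 lay inside the control range, and Aqp2 was below it (38.5 FPKM, control 44.2 to 56.8). Deviations of each library from the mean of all 12 libraries were correlated with transcript length across the tested genes. In busulfan 3 they fell with length (Spearman -0.528), against -0.071 to 0.318 in the other 11 libraries. With GC content the same correlations were 0.091, 0.047 and 0.380 in busulfan 1, 2 and 3 and -0.299 to -0.041 in control. In the groups given L.J. they were -0.265 to 0.137. Atp5g2 had a GC content of 63.3%, beside a median of 51.6% for the subunit genes. The part of cell composition, length and GC content in the results on the respiratory genes was not tested. Counts of genes called or apart that rest on the busulfan group are given with and without busulfan 3. Fewer cells of a type and less RNA per cell cannot be told apart in tissue RNA.

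The subunit genes differ in how their promoters are built, and 5 of these are printed because the results turn on the genes behind them. Of the 89 genes, 70 had an entry in the RefSeq promoter table (build GRCm38.p6), which runs from 250 bases before to 50 bases after a start site. Atp5g2 and Ndufa5 hold a site of nuclear respiratory factor 1, an activator of many respiratory genes, searched as GCGCA, any base and GCGC in a row. Ndufa7 and Cox8b hold the TATA box letters TATAAA, in Ndufa7 on the opposite strand. Ndufa10 holds neither of these nor the ETS factor motif CCGGAAG. The sequences run 5′ to 3′ on the strand of the gene, and capitals mark the motifs. They lie at chr15:102670998-102671297 (Atp5g2, minus strand), chr17:33824322-33824621 (Ndufa7, plus strand), chr6:24527477-24527776 (Ndufa5, minus strand), chr1:92473709-92474008 (Ndufa10, minus strand) and chr7:140900397-140900696 (Cox8b, minus strand). For Ndufa7 and Ndufa5 the table lists 2 start sites, and 1 window of each is shown.
Atp5g2: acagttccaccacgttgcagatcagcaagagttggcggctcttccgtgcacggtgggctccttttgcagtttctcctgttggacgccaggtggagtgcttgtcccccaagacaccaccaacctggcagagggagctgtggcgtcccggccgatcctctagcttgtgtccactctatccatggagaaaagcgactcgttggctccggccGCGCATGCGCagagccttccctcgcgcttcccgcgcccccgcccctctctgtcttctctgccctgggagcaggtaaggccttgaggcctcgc
Ndufa7: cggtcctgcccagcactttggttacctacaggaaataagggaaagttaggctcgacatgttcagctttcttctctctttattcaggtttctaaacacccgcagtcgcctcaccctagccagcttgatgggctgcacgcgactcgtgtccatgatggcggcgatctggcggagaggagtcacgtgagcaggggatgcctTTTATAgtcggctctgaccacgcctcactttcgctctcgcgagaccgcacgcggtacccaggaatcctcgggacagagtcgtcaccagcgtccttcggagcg
Ndufa5: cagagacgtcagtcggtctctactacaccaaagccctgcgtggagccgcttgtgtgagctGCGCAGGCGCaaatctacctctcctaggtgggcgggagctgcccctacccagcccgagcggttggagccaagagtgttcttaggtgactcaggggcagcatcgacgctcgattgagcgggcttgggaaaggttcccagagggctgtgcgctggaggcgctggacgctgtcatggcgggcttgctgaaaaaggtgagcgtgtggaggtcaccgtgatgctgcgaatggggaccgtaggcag
Ndufa10: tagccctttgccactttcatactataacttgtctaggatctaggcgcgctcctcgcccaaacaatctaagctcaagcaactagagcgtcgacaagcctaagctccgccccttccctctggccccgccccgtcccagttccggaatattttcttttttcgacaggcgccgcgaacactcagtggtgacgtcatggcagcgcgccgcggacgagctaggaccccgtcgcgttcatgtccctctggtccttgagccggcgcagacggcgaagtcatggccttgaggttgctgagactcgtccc
Cox8b: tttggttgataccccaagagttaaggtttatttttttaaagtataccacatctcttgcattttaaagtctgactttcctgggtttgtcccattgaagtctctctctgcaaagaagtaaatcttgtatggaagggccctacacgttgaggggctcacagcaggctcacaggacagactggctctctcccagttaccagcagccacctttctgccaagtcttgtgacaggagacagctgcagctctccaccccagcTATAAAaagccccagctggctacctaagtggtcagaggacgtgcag

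Searched on both strands, the nuclear respiratory factor 1 motif was present in 17 of 70 subunit gene promoters, or 24.3%, against 5.19% of the promoters of 27025 genes. Among the 17 were Atp5g2, Atp5g3 and Atp5h of ATP synthase, Ndufa5, Ndufa6 and Ndufa8 of complex I, and Sdha and Sdhd of complex II. CCGGAAG was present in 16 of 70, or 22.9%, against 9.93%. TATAAA was present in 7 of 70, or 10.0%, against 15.67%. None of the 3 motifs contains another, and a match of letters does not show that a factor binds there.

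Most subunit genes were among the abundant transcripts of these kidneys. The 89 genes together made up 4.96% ± 0.137 (SD, n = 3) of the FPKM sum in control libraries, 5.21% ± 0.113 with busulfan, 4.84% ± 0.138 with busulfan plus L.J. and 4.92% ± 0.227 with L.J. alone. Of the 89 genes, 69 had a mean over 100 FPKM across the 12 libraries and 7 of those tested had a mean under 10 FPKM. The filter of at least 1 FPKM in at least 3 libraries was passed by 86. The 3 that failed it were Ndufb4b and the testis isoforms Cox7b2 and Cox8c. Ndufb4b was listed at 2.02 and 0.88 FPKM in control 2 and 3 and at 0 elsewhere. Its symbol places it with Ndufb4 and Ndufb4c, and whether reads were shared among these genes was not tested.

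On this length-corrected scale, subunits of the same machine were not equally abundant. Atp5b, the catalytic beta subunit of ATP synthase, was highest at 1612 FPKM averaged over the 12 libraries, and its partner Atp5a1 stood at 776 FPKM. Cox6b1 (951 FPKM) and Cox6a1 (835 FPKM), accessory subunits of complex IV, came next after Atp5b, followed by Ndufa4 (828 FPKM). In complex III the highest was Uqcrb at 630.0 FPKM, and in complex I Ndufb4 at 463 FPKM. In complex II, Sdhc (298 FPKM), Sdhb (283 FPKM) and Sdha (271 FPKM), the flavin-bearing subunit, lay close together, and the membrane anchor Sdhd was lower at 156 FPKM. The median gene of complex I had a mean of 141 FPKM and the median gene of complex V had 406 FPKM.

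The division of the summed FPKM among the complexes was nearly the same in all 12 libraries. Complex V took 30.7% to 32.2% of the subunit total, complex I 26.5% to 27.5%, complex IV 25.9% to 27.1%, complex III 10.8% to 11.2% and complex II 3.84% to 4.24%. The controls alone spanned 31.2% to 31.9% for complex V and 26.1% to 26.7% for complex IV. No complex therefore gained or lost more than 2 percentage points against the others in any library. Inside these limits, complex V took 30.7% to 31.5% with busulfan and 31.9% to 32.2% with busulfan plus L.J. Complex IV took 26.7% to 26.9% and 25.9% to 26.2% in these groups, and complex II 3.84% to 4.02% and 4.15% to 4.20%. The shares of complexes I and III overlapped between them. These shares were not tested.

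**Figure D1:**
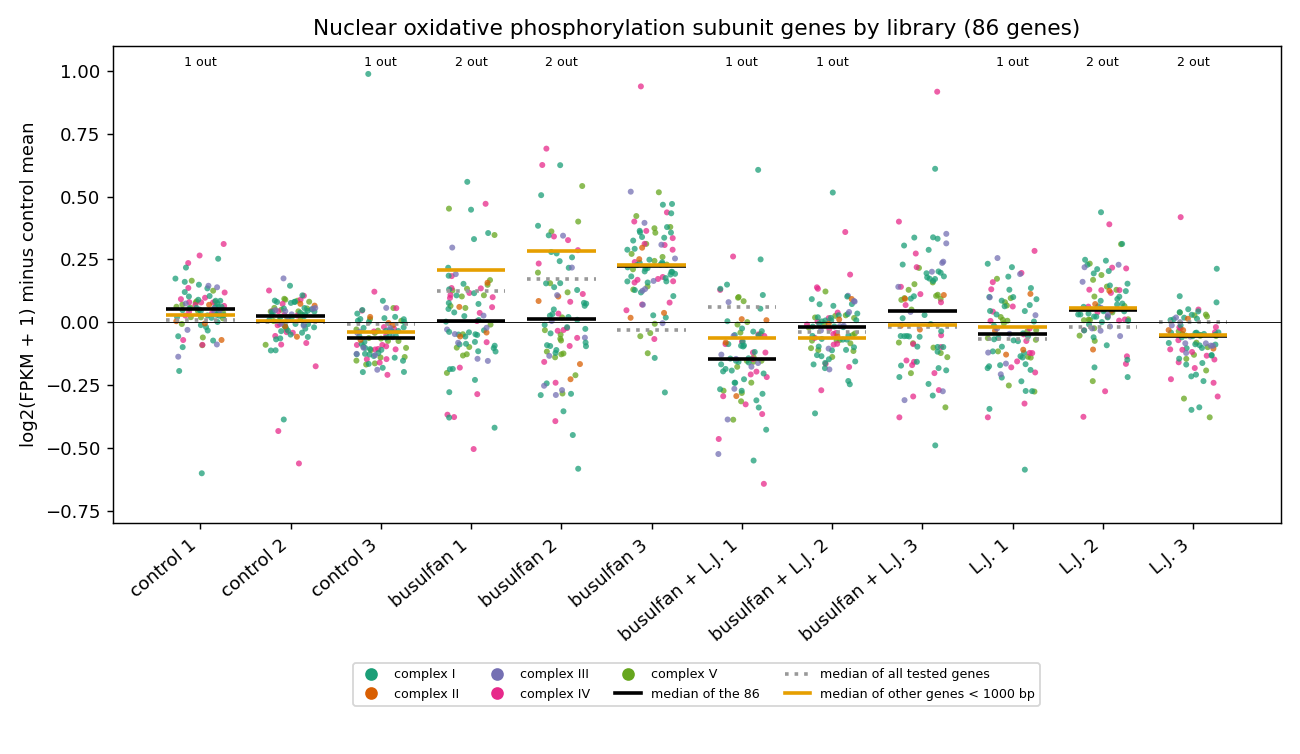
Difference of each of the 86 tested subunit genes from the mean of the 3 control libraries, on the log2(FPKM + 1) scale, in each of the 12 libraries. Points are genes coloured by complex, black lines their median, dotted grey lines the median of all 12281 tested genes and orange lines the median of the 624 other genes with transcripts under 1000 bp; "out" gives the number of genes beyond the axis. The black line stands at 0.22 in busulfan 3, where the orange line lies on it, and near 0 in busulfan 1 and 2, where the orange line lies above it.

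Busulfan against control asks what the drug changed. Among the 86 subunit genes, 2 rose and 0 fell. These were Atp5g2, which encodes the membrane ring subunit c of ATP synthase, and Ndufa7, an accessory subunit of complex I. Atp5g2 was at 189.8, 169 and 181 FPKM in the control libraries and at 246, 262 and 241 FPKM in the busulfan libraries. The rise was 0.47 on the log2(FPKM + 1) scale (SE 0.079, limma, adjusted p = 0.0364). Every busulfan library was above every control library.

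Ndufa7 was at 77.3, 80.3 and 76.2 FPKM in control and at 115, 121 and 108 FPKM after busulfan. Its rise was 0.55 (SE 0.111, limma, adjusted p = 0.0428), and again the groups did not overlap. Over all tested genes 1.44% were called in either direction, 0.725% higher and 0.717% lower, so 2 of 86 is near the background. Both calls are close to the threshold: leaving out any of the 3 controls, busulfan 1, busulfan 2, busulfan plus L.J. 2 or any of the 3 L.J. libraries left 0 of 86 called, and correcting for length and GC content lowered the changes to 0.15 for Atp5g2 and 0.21 for Ndufa7 with 0 called. Without busulfan 3 both calls held.

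The shape of the whole family was a small shift whose sign depends on the scaling. The median difference of the 86 genes was 0.10, beside 0.083 for all tested genes, with 61 positive and 25 negative. It was 0.039 under quantile normalization, 0.015 with sums scaled without Kap and -0.10 with the length and GC correction. In 20 genes every busulfan library was above every control, and in 1 gene, Ndufs1, every busulfan library was below. Over all tested genes these shares were 14.7% and 7.33%, 22% in all. Without busulfan 3 the groups were apart in 25 genes above control and 17 below it, against 45.8% and 16.5% of all tested genes, 62.3% in all. By complex, the median was 0.074 for complex I, 0.044 for II, 0.038 for III, 0.15 for IV and 0.11 for V, each with a range that included negative values.

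Several genes that were apart between the groups missed the threshold. Ndufa5, an accessory subunit of the arm of complex I that reaches into the matrix, was at 209.9, 205 and 215 FPKM in control and 264, 267 and 284 FPKM after busulfan, a difference of 0.37 (limma, adjusted p = 0.0602). Atp5h, of the stalk that holds ATP synthase in place, was at 567 ± 21.3 and 718 ± 12.7 FPKM (SD, n = 3 each), a difference of 0.34 (limma, adjusted p = 0.103). Uqcr11, a small subunit of complex III, differed by 0.34 (limma, adjusted p = 0.106). All 3 were higher in each busulfan library than in any control.

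None of the core subunits named here, most of which carry flavin, iron-sulfur clusters or haem, was called with all libraries. Ndufs1, the largest iron-sulfur subunit of complex I, was at 146, 148 and 139 FPKM in control and at 127, 113 and 131 FPKM after busulfan, a difference of -0.23 (SE 0.086, limma, adjusted p = 0.152). Ndufs7, another iron-sulfur subunit of complex I, was at 129, 136 and 115 FPKM in control and at 153 ± 10.1 FPKM after busulfan (SD, n = 3), a difference of 0.28 (SE 0.117, limma, adjusted p = 0.1895), with every busulfan library above every control. The iron-sulfur subunits Sdhb and Ndufs8 differed by 0.15 and -0.14, and Sdhd by 0.10. Ndufs3, Ndufv1, Ndufv2, Sdha, Sdhc, Cyc1 and Uqcrfs1 differed by between -0.10 and 0.05. The groups overlapped in all of these. Atp5b, at 1651 ± 46.1 FPKM in control, was at 1511, 1356 and 1822 FPKM after busulfan, on both sides of the control range.

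**Figure D2:**
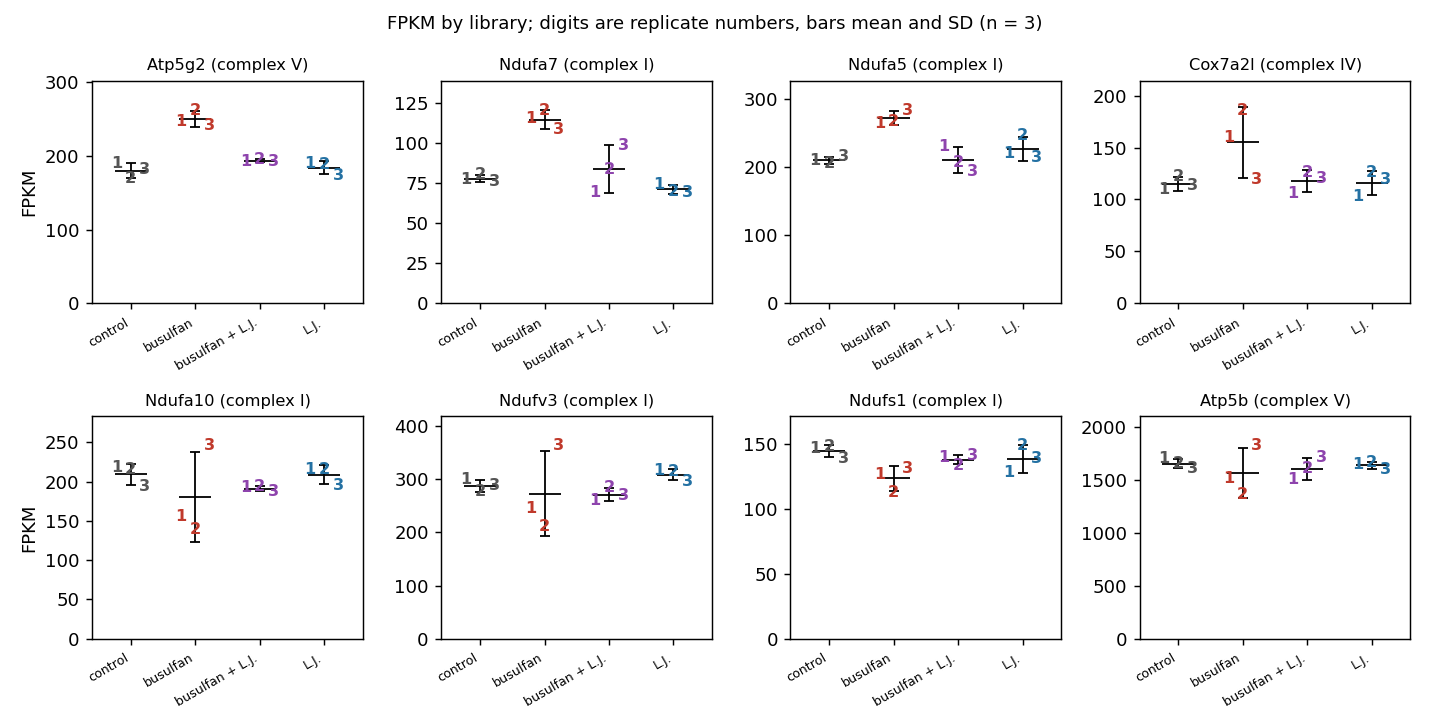
FPKM of 8 subunit genes in the 4 groups; digits are the replicate numbers of the libraries, and horizontal bars with whiskers are the mean and SD (n = 3). Atp5g2, Ndufa7 and Ndufa5 are higher in all 3 busulfan libraries than in any control, while for Cox7a2l, Ndufa10, Ndufv3 and Atp5b busulfan 3 stands apart from busulfan 1 and 2.

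The spread inside the busulfan group took a different form in these genes than in others. The median subunit gene lay 0.007 and 0.015 above control in busulfan 1 and 2 and 0.22 above in busulfan 3, while the median of all tested genes lay at 0.13 and 0.17 and at -0.031. Busulfan 3 thus had the higher subunit genes and the lower genes in general. In busulfan 3, 78 of the 86 genes were above the control mean and 26 were more than 0.3 above it. In busulfan 1 and 2, 45 of 86 were above it in each library, with 9 and 14 more than 0.3 above.

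Subunit genes have short transcripts. Their median length was 865 bp, against 3054 bp for all tested genes, and 50 of those tested were under 1000 bp. The 624 other tested genes under 1000 bp had a median difference of 0.227 in busulfan 3, beside 0.223 for the subunit genes. In busulfan 1 and 2 those other short genes stood at 0.21 and 0.28, while the subunit genes stood near 0. Within the subunit genes the difference from control fell with length in each busulfan library (Spearman -0.32, -0.368 and -0.396 in busulfan 1, 2 and 3). The correlation was also -0.313 in L.J. 2, -0.297 in busulfan plus L.J. 2 and -0.244 in L.J. 1. In the remaining libraries it lay between -0.112 and 0.226. Each value rests on n = 85 genes that share a library and the control mean, and is given as a description.

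**Figure D3:**
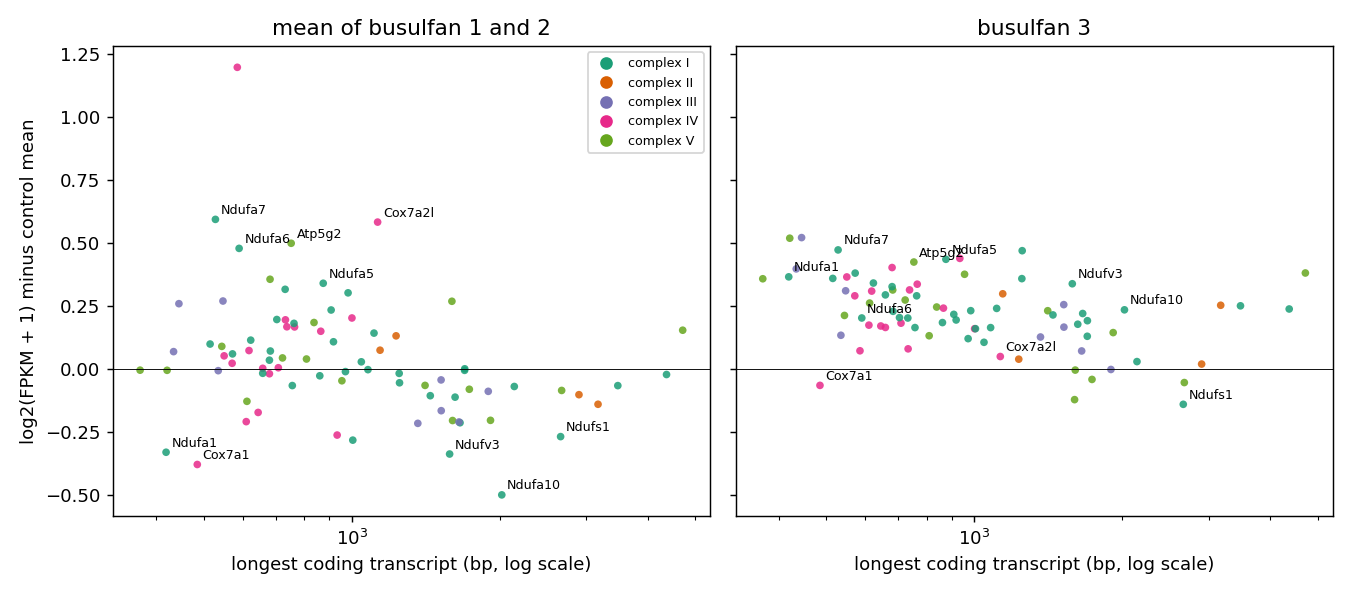
Difference from the control mean on the log2(FPKM + 1) scale against the length of the longest coding transcript (log axis) for the subunit genes with a known length, without Cox8b and Ndufa11b, which lie at low FPKM. The left panel is the mean of busulfan 1 and 2 and the right panel busulfan 3; points are genes coloured by complex. In busulfan 3 most points lie above 0 at all lengths, and on the left Ndufa10, Ndufv3, Ndufs1 and Cox7a1 lie below 0 while Ndufa7, Ndufa6, Atp5g2 and Cox7a2l lie above.

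Busulfan 1 and 2 differed from control in opposite directions for different subunits. Without busulfan 3, 9 of 86 genes rose and 4 fell, with a median of 0.00. With the length and GC correction added the balance turned, to 2 higher and 16 lower with a median of -0.18. Over all tested genes the same fit called 24.4% higher and 8.12% lower, 32.5% in all, larger shares than those of the subunit genes in each direction. Those that rose as deposited were Cox6b2 (1.20), Ndufa7 (0.59), Cox7a2l (0.58), Atp5g2 (0.50), Ndufa6 (0.48), Atp5h (0.35), Ndufa5 (0.34), Ndufb10 (0.31) and Atp5s (0.27). Those that fell were Ndufa10 (-0.50), Cox7a1 (-0.38), Ndufv3 (-0.34) and Ndufs1 (-0.27). No gene of complex II or complex III was called. All 4 that fell were also called lower, and Cox6b2 and Cox7a2l higher, when busulfan 3 was left out under each of 3 other scalings (length and GC correction, quantile normalization, sums without Kap). The other 7 rises were not called under the length and GC correction.

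The split is plain in the values of Ndufa10, an accessory subunit of complex I. It was at 218, 216 and 194 FPKM in control, at 156 and 139 FPKM in busulfan 1 and 2, and at 246 FPKM in busulfan 3. Busulfan 3 was the highest of all 12 libraries and the other busulfan libraries the lowest. Over the 3 busulfan libraries the difference was -0.26 (limma, adjusted p = 0.378), and without busulfan 3 it was -0.50 (SE 0.085, limma, adjusted p = 0.00205).

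Ndufv3, an accessory subunit beside the NADH-binding site of complex I, had the same order. It was at 299, 276 and 288 FPKM in control, at 245 and 211 FPKM in busulfan 1 and 2 and at 364 FPKM in busulfan 3. Its difference without busulfan 3 was -0.34 (SE 0.085, limma, adjusted p = 0.0133). Cox7a2l, known as an assembly factor that joins complexes III and IV into supercomplexes, went the other way. It was at 109, 122 and 113 FPKM in control, at 159.7 and 186 FPKM in busulfan 1 and 2, and at 119 FPKM in busulfan 3. Busulfan 3 lay inside the control range, and the difference was 0.40 over all 3 libraries (limma, adjusted p = 0.142) and 0.58 without busulfan 3 (SE 0.112, limma, adjusted p = 0.00377).

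**Figure D4:**
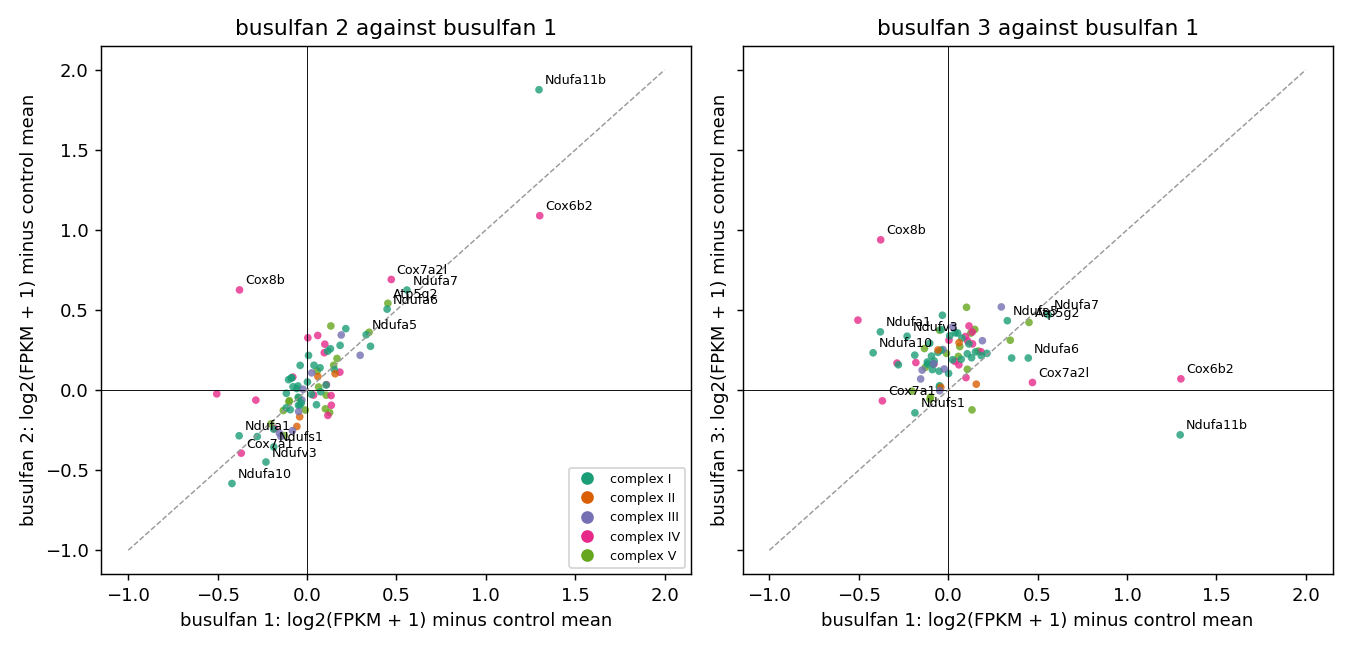
Each of the 86 tested subunit genes in busulfan 2 (left) and busulfan 3 (right) against busulfan 1, all as log2(FPKM + 1) minus the control mean; the dashed line marks equal values and colours mark complexes. Spearman correlations over the 86 genes, all measured from the same control mean, were 0.716 for busulfan 1 and 2, 0.225 for busulfan 1 and 3 and 0.181 for busulfan 2 and 3.

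With busulfan plus L.J., compared with busulfan alone, 3 subunit genes fell and 0 rose. They were Atp5g2, Ndufa7 and Ndufa5. Atp5g2 was at 192, 196 and 192 FPKM with busulfan plus L.J., below all 3 busulfan libraries (-0.37, SE 0.079, limma, adjusted p = 0.0421). Ndufa7 was at 69.3, 83.7 and 98.7 FPKM, again below all busulfan libraries (-0.46, SE 0.111, limma, adjusted p = 0.0492). Ndufa5 was at 230.1, 207 and 193 FPKM (-0.37, SE 0.090, limma, adjusted p = 0.0499). This comparison and busulfan against control share the same 3 busulfan libraries, so that opposite signs in them are not independent.

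Over all tested genes 3.24% were called in this comparison, 1.18% higher and 2.06% lower, beside 3 of 86 subunit genes. In 22 subunit genes every library with busulfan plus L.J. was below every busulfan library, and in 1 gene every library was above, against 12.1% and 7.14% of all tested genes, 19.2% in all. Without busulfan 3 these numbers were 27 genes below and 12 above, against 40.7% and 15.1%, 55.8% in all. The median of the 86 was -0.14, beside -0.087 over all tested genes, and it was 0.097 with the length and GC correction, the opposite sign. Leaving out any library other than busulfan 3 ended all 3 calls, as did quantile normalization, sums without Kap and the length and GC correction.

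Without busulfan 3, 17 of the 86 were called, 4 higher and 13 lower, against a background of 31.6% (7.98% higher and 23.6% lower). The length and GC correction turned this balance too, to 18 higher and 2 lower, and the median from -0.087 to 0.16. The 4 higher with busulfan plus L.J. were Ndufa10 (0.37), Cox7a1 (0.29), Ndufv1 (0.26), which holds the NADH-binding flavin, and Ndufv3 (0.25). The largest falls were those of Cox6b2 (-1.43), Cox7a2l (-0.55), Ndufa6 (-0.51), Ndufa7 (-0.50) and Ndufs7 (-0.47), the last an iron-sulfur subunit. Of the 17, the genes still called under that correction were the 4 higher ones, Cox6b2 and Cox7a2l, 6 in all, and Ndufa6, Ndufa7 and Ndufs7 were not among them. As in the comparison with control, 0 genes of complexes II and III were called.

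L.J. alone against control called 0 of the 86 genes, as it called 0% of all tested genes. At an unadjusted p under 0.05 there were also 0 subunit genes, and the smallest adjusted p was 0.9988 (limma). The median difference of the 86 genes was -0.013. For a single gene the median SE was 0.121. Groups were apart in 1 gene above control and 5 below it, against 4.74% and 8.22% of all tested genes, 13% in all. An example of the 5 was Ndufs8, at 108 ± 6.99 FPKM in control and 89.9 ± 4.28 FPKM with L.J. (SD, n = 3 each; difference -0.26).

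Busulfan plus L.J. against control called 0 of 86, beside 0.00814% of all tested genes, with 0 at an unadjusted p under 0.05 and a median of -0.057. Atp5g2 differed from control by 0.10 (SE 0.079), Ndufa7 by 0.09 (SE 0.111) and Ndufa5 by 0.00 (SE 0.090). Groups were apart in 1 gene above control (Atp5g2) and 4 below, against 5.63% and 4.46% of all tested genes, 10.1% in all. Busulfan plus L.J. against L.J. alone also called 0 of 86 (0% of all tested genes), with 2 genes at an unadjusted p under 0.05, Ndufa12 (-0.20) and Ndufc1 (-0.29), both accessory subunits of complex I. In this comparison groups were apart in 2 genes higher and 8 lower, against 5.49% and 2.22% of all tested genes, 7.71% in all. A missed threshold does not show that these groups were alike.

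The interaction asks whether the effect of busulfan differed between kidneys with and without L.J. It was called for 0 of 86 genes by limma, beside 0.0163% of all tested genes, and 7 genes had an unadjusted p under 0.05. The smallest adjusted p was 0.259, for Ndufa5 (-0.48, SE 0.128). Without busulfan 3, 4 genes were called, against 12.1% of all tested genes (4.12% higher and 8% lower); with the length and GC correction added there were 3, all higher, of which Cox7a1 was shared. The 4 were Cox7a1 (0.52) and, below 0, Cox7a2l (-0.56), Ndufa5 (-0.45) and Atp5g2 (-0.43).

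Some subunits exist as isoforms from separate genes, and their shares within a set do not depend on the scaling of a library to its total. Atp5g1, Atp5g2 and Atp5g3 encode the same mature c subunit with different import sequences. Atp5g2 made up 18.2%, 16.0% and 17.2% of the summed FPKM of the 3 genes in control and 21.0%, 22.4% and 18.3% after busulfan. The mean of busulfan 1 and 2 alone was 21.7%. The groups were apart by a narrow margin, and the exact two-sided permutation test gave p = 0.1, the smallest that 3 against 3 libraries allow. With busulfan plus L.J. the share was 17.7% ± 1.19 (SD, n = 3; exact permutation p = 0.2 against busulfan). In all, 8 such shares were tested in these 2 comparisons, and with 3 libraries a group none can reach 0.05; adjusted over the 16 tests, p was 0.533 at the lowest.

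The isoforms known from other tissues were low throughout. Cox7a1, the heart and muscle form, was at 23.5 to 32.2 FPKM in the 12 libraries, and Cox7a2 at 188 to 257 FPKM. Cox7a1 made up 8.51% ± 0.728 of the Cox7a1, Cox7a2 and Cox7a2l sum in control and 6.30% ± 1.12 after busulfan (SD, n = 3 each; exact permutation p = 0.1), with a mean of 5.69% in busulfan 1 and 2. Cox6b2, the testis form, was at between 3.5 and 6.54 FPKM in control and at 14.0, 11.9 and 5.38 FPKM after busulfan, so that busulfan 1 and 2 were high and busulfan 3 lay inside the control range. The testis markers Prm1, Prm2, Tnp1 and Ldhc summed to at most 0.49 FPKM in any library. Cox4i2, Cox6a2 and Ndufa4l2 were at 7.05 FPKM or less everywhere.

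Cox8b, the heart, muscle and brown fat form of subunit VIII, had the largest SE of the 86 genes (0.88). It was at 0.21, 0.83 and 7.91 FPKM in control, 1.08, 3.17 and 4.18 FPKM with busulfan, 15.4, 19.3 and 1.92 FPKM with busulfan plus L.J. and 2.29, 16.3 and 6.28 FPKM with L.J. alone. High and low libraries occurred in both L.J. groups, and all groups overlapped. Its difference was 1.87 in busulfan plus L.J. against control (SE 0.88, limma, adjusted p = 0.9997) and 1.46 in L.J. alone against control (SE 0.88, limma, adjusted p = 0.9988). Cox8a, the form of most tissues, stayed at 726 to 1000.2 FPKM.

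The libraries highest in Cox8b were also highest in the brown fat markers Ucp1 and Cidea. Ucp1, the uncoupling protein that defines brown fat, was at 0, 0.34 and 3.55 FPKM in control, 0.04, 0 and 0.76 FPKM with busulfan, 8.47, 13.0 and 0.97 FPKM with busulfan plus L.J. and 0.08, 9.83 and 4.74 FPKM with L.J. alone. The 4 listed brown fat markers (Ucp1, Cidea, Dio2 and Prdm16) summed to between 2.17 and 10.3 FPKM in control and between 3.44 and 29.2 FPKM with busulfan plus L.J. Busulfan plus L.J. 1 and 2 and L.J. 2 were the 3 highest libraries for Cox8b, Ucp1 and Cidea alike. Prdm16 did not follow, at 2.40, 1.63 and 1.88 FPKM there and highest in busulfan 1 and 2 (3.66 and 4.98 FPKM). Dio2 was at 0.29 FPKM or less everywhere. The 5 listed general fat markers also summed highest in those 3 libraries, at 536, 301 and 348 FPKM. The striated muscle markers summed to at most 5.06 FPKM, in busulfan plus L.J. 3, where Cox8b was low. The part of fat, brown or other, in the Cox8b values was not tested.

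**Figure D5:**
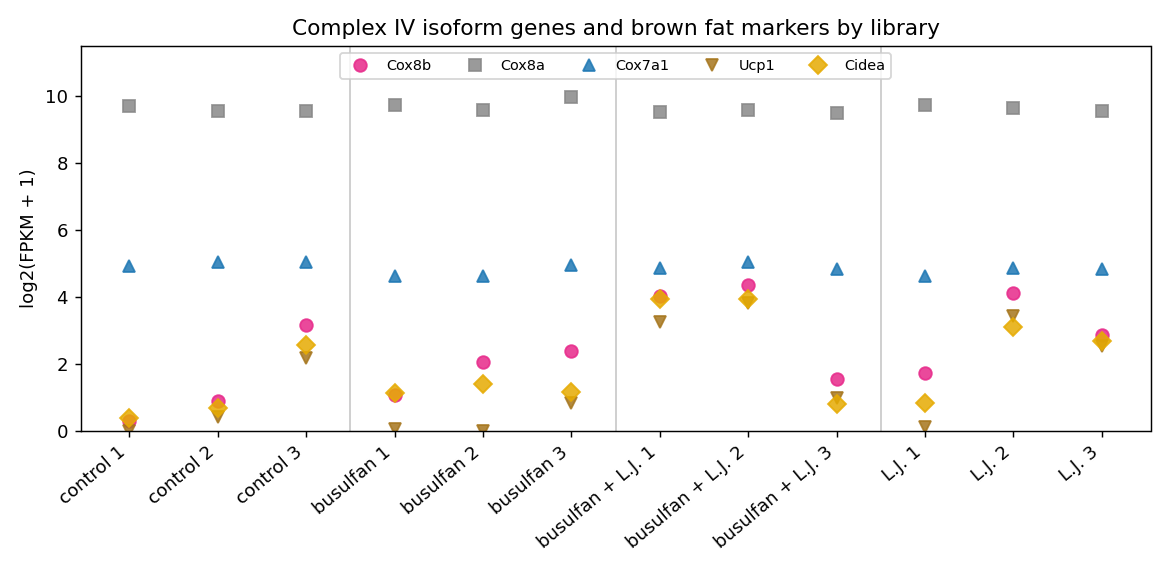
Level of 3 complex IV isoform genes (Cox8a, Cox8b, Cox7a1) and of the brown fat markers Ucp1 and Cidea in each library, on the log2(FPKM + 1) scale. Cox8b is highest in the 3 libraries in which Ucp1 and Cidea are highest, and Cox8a stays between 726 and 1000.2 FPKM.

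Genes that work beside the complexes were read from 4 further lists. Of 48 assembly factors, 0 were called in busulfan against control (median 0.034) and 0 in the 4 comparisons other than busulfan plus L.J. against busulfan. In that comparison 1 rose and 2 fell, beside 3.24% of all tested genes. Without busulfan 3, 5 rose and 4 fell in busulfan against control (32.5% of all tested genes called), 5 rose and 6 fell in busulfan plus L.J. against busulfan (31.6%), and the interaction was called for 2 above and 2 below 0 (12.1%). Taco1, which activates translation of a mitochondrial cytochrome oxidase subunit, was at 15.0, 13.9 and 16.2 FPKM with busulfan and at 19.4, 19.4 and 20.8 FPKM with L.J. added (0.38, limma, adjusted p = 0.0492). Cox17, a copper chaperone for complex IV, was at 77.95, 79.2 and 83.2 FPKM and at 62.4, 58.6 and 57.9 FPKM (-0.42, limma, adjusted p = 0.0421). Surf1, another complex IV assembly factor, fell by 0.40 (limma, adjusted p = 0.0437), from 41.9, 40.8 and 38.8 FPKM to 28.9, 31.3 and 31.4 FPKM. The groups were apart in all 3, which are named because they were called. Of all tested genes 19.2% were apart in this comparison (7.14% higher and 12.1% lower), and 55.8% without busulfan 3. Without busulfan 3 these genes stayed called. With the length and GC correction 0 of all tested genes were called in this comparison, so none of these was.

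Of 13 citric acid cycle enzymes, 18 regulators of mitochondrial biogenesis and 11 carriers, porins and cytochrome c, 0 were called in any of the 6 comparisons with all libraries. The cycle enzymes, longer than the subunit genes at a median of 2580 bp, differed by -0.34 to -0.02 after busulfan (median -0.07). Their medians were -0.16 and -0.20 in busulfan 1 and 2 and 0.02 in busulfan 3. Without busulfan 3, 0 of the 13 rose and 2 fell, Suclg2 (-0.44) and Sucla2 (-0.30), beside 24.4% and 8.12% of all tested genes. In busulfan plus L.J. against busulfan 3 of the 13 then rose, Suclg2 (0.51) and Sucla2 (0.27) among them, and 0 fell, beside 7.98% and 23.6%. Of the 18 biogenesis regulators, 4 rose and 0 fell in busulfan against control without busulfan 3, near the 24.4% of all tested genes that rose, and 1 rose and 5 fell in busulfan plus L.J. against busulfan, where 23.6% of all tested genes fell. Among the 4 were Ppargc1a (0.57), a coactivator of mitochondrial genes, and Polg2 (0.88), the accessory subunit of the mitochondrial DNA polymerase. Ppargc1a was at 22.16 and 23.9 FPKM in busulfan 1 and 2. In busulfan 3 it was at 9.16 FPKM, the lowest of all libraries (control 14.15 to 16.71 FPKM). Polg2 was low, at 3.82 and 4.24 FPKM in busulfan 1 and 2. In busulfan 3 Polg2 was at 1.8 FPKM, inside the control range.

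Cytochrome c itself, which carries electrons from complex III to complex IV, showed the same division of the busulfan libraries. Cycs was at 291, 302 and 264 FPKM in control, at 182 and 149.7 FPKM in busulfan 1 and 2, and at 286 FPKM in busulfan 3. Busulfan 1 and 2 were the lowest of the 12 libraries, and busulfan 3 lay inside the control range. The difference was -0.52 over the 3 libraries (SE 0.182, limma, adjusted p = 0.128) and -0.79 without busulfan 3 (limma, adjusted p = 4.45e-04). Cyc1, the haem-bearing subunit of complex III that hands electrons to it, was at 227, 222 and 277 FPKM in the same libraries, against 232 ± 8.45 FPKM in control. Without busulfan 3, 0 of the 11 carriers, porins and cytochrome c rose in busulfan against control and 2 fell, Cycs and Etfdh (-0.31). Of all tested genes 24.4% rose and 8.12% fell. In busulfan plus L.J. against busulfan 1 rose, Cycs (0.70), and 0 fell, beside 7.98% and 23.6%. The interaction without busulfan 3 was called above 0 for 1 gene of this list and 1 cycle enzyme (4.12% of all tested genes). It was called below 0 for 2 biogenesis regulators (8%).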

How the data were processed

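RNA from frozen kidneys was extracted with Trizol and a column kit and made into Illumina libraries, per the labels' protocols. The authors deposited a table of FPKM values for 21004 genes, made with Bowtie 0.12.2 and mm10, per the submitters' processing notes. The counting tool, like the strand setting, is not given in the sources used here. All 12 value columns were mapped to samples by title. Of the symbols, 26 stored as dates were restored by Entrez identifier and 1 duplicate was dropped.

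Genes with at least 1 FPKM in at least 3 libraries (12281) were tested on log2(FPKM + 1), which understates changes of low genes, with limma 3.58.1 (R 4.3.3, trend, 1 mean per group over all 12 libraries, two-sided, Benjamini-Hochberg adjusted p under 0.05 over all tested genes). Limma with trend was also run on simulated data. Lengths and GC content came from GENCODE M21 and covered 98.6% of tested genes; coordinates and promoters came from RefSeq. Members, lists and tests were chosen with earlier results of these data known. Genes named are core subunits, tissue isoforms, the extremes and called genes of each complex and comparison, and the most abundant; genes called without busulfan 3 and the other genes named with values were added after their values were seen. Alternatives were another pseudocount, no filter, quantile normalization, sums without Kap, library weights, a replicate block, length and GC correction, only the groups compared, each library left out, and, added after seeing the data, busulfan 3 left out under 3 scalings. Tables and figures used Python 3.11.15, pandas 2.3.3 and matplotlib 3.10.9. Values of 1 named gene are not reported here. Depth is unknown, so precision rests on the spread between libraries.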

Additional observations from a re-analysis of the deposited data

How the results depend on the processing

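Counts of subunit genes called moved with the processing wherever the busulfan group was involved. In busulfan against control (2 of 86), the count was 2 with a pseudocount of 0.1 or quantile normalization, 1 with no filter or with sums scaled without Kap, 0 with only the groups compared or the length and GC correction, and 32 (17 higher, 15 lower) with library weights, while leaving out a library gave 0 to 13. With busulfan 3 left out it was 18 under length and GC correction (2 higher, 16 lower), 14 under quantile normalization (7 and 7) and 13 with sums without Kap (5 and 8), against 9 and 4 as deposited. Quantile normalization then moved the median of all tested genes from 0.15 to 0.009. In busulfan plus L.J. against busulfan (3 of 86), the count was 1 with the pseudocount of 0.1 or no filter, 0 with quantile normalization, sums without Kap, the length and GC correction or only the groups compared, 31 (8 higher, 23 lower) with library weights, and 0 to 17 when a library was left out. With busulfan 3 left out it was 20 (18 higher, 2 lower), 16 (7 and 9) and 13 (6 and 7) under the same 3 scalings. The interaction (0 of 86) gave 15 with library weights (3 higher, 12 lower), 3, 4 and 2 under those scalings, and 0 to 4 when a library was left out. The comparisons of L.J. with control, and of busulfan plus L.J. with control or with L.J., gave 0 under every alternative run. Over all tested genes busulfan against control called 177 as deposited, 503 with quantile normalization (181 higher, 322 lower), 217 with sums without Kap (31 higher), 7312 with library weights, 55 with no filter, 11 with the replicate block and 0 with only the groups compared or the length and GC correction. In busulfan plus L.J. against busulfan, 4 genes that were below 0 but not called in the main fit were called higher under an alternative. With busulfan 3 left out and the length and GC correction, these were Atp5g3 (from -0.01 to 0.33), Ndufa4 (from -0.01 to 0.41) and Uqcr10 (from -0.11 to 0.42). With library weights it was Ndufa4l2 (from -0.07 to 0.32). The cause was not tested.

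The replicate number as a block gave 0 calls in busulfan against control and 0 in busulfan plus L.J. against busulfan. No pairing by number was seen: over 18 pairs of libraries with the same number, deviations from the group means correlated between -0.239 and 0.0813. Pairs with different numbers lay between -0.146 and 0.190. With 3 libraries a group such correlations cannot exclude a paired layout. With 3 libraries a group and no known depth, small differences in low genes such as Cox8b and Ndufa11b cannot be resolved.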
